A study of Mus musculus with 9 samples.

Results

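The insulin-like growth factor (IGF) axis was followed in RNA sequencing of mouse kidney cortex after a fast. Its members here are the ligand gene Igf1, the receptor gene Igf1r and the 7 binding protein genes Igfbp1 to Igfbp7, 9 of the 23420 genes in the deposited table. They were chosen by name, and in part because Igfbp5 was known to be strongly lower in the fasted group of these libraries. The fasted and fed values of the members are therefore given as a description. No test was made of the members alone, and their calls, taken from a fit across all genes, are also only descriptive. The 4 fasted mice had gone 16 h without food and the 5 fed mice had eaten freely. All 9 were male C57/BL6 mice on a chow diet and a 12 h light cycle, with 1 library from about 50 mg of cortex per mouse, and no age is given here. Any p-value below measures only the spread between these mice.

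IGF-1 is a growth factor that circulates bound to IGF-binding proteins, which carry it, protect it and control how much reaches the IGF-1 receptor on cells. Liver makes most circulating IGF-1, and kidney cells both make binding proteins and respond to IGF-1. Food shortage lowers insulin, and IGFBP-1 made by the liver is well known to rise when insulin is low.

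Levels are normalized counts, the reads of a gene divided by 1 size factor per library. Between 18902645 and 27186745 reads were recovered per fasted library and between 19638174 and 32469467 per fed library. Each change is a difference of log2(normalized counts + 1), fasted minus fed, given with its standard error (SE). It comes from limma fitted to the 15098 genes that averaged 10 normalized counts or more. All 9 members passed that filter. In bulk cortex, fewer cells of a type and less RNA per cell cannot be told apart. The summed proximal tubule markers, the main cell type of cortex, lay between 481162 and 542707 normalized counts in fasted libraries and between 506116 and 683952 in fed libraries. These 6 markers went different ways, with log2 changes of -0.58 (SE 0.16) for Slc34a1, -0.47 (SE 0.15) for Lrp2 and 0.28 (SE 0.10) for Slc27a2. At an adjusted limma p under 0.05 only Slc34a1 differed. Hepatocyte transcripts were also present: Alb, the liver's albumin gene, had 3623, 1848, 7186 and 7396 normalized counts in Fasted 1 to 4 and 251, 10091, 4321, 2524 and 402 in Fed 1 to 5. The 5 hepatocyte markers did not all run alike. Log2 changes were 1.42 (SE 0.97) for Alb, 1.91 (SE 0.89) for Apoa1 and 1.04 (SE 0.31) for Serpina1a. They were 0.46 (SE 0.21) for Apoh and -0.50 (SE 0.31) for Ttr. In Fed 5 Alb was low at 402, but Serpina1a, at 501, was the highest of the fed group.

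In the fasted kidneys 1 binding protein transcript was far lower and its relative was higher: Igfbp5 was at 0.372 of its fed mean and Igfbp3 was higher by 0.57 (SE 0.11) on the log2 scale. Igfbp1 was higher in all fasted libraries than in 4 of the 5 fed ones. Igf1 was lower, and the receptor and the most abundant binding proteins, Igfbp4 and Igfbp7, differed little. In the fit across all genes 11% of genes were called changed at an adjusted p under 0.05. Those called higher in the fasted group were 5.72% of genes and those called lower 5.25%. Among the 9 members 2 were called, Igfbp3 higher and Igfbp5 lower. The groups of libraries did not overlap for 14.3% of all genes tested and for 3 of the 9 members, Igfbp3, Igfbp5 and Igf1. Since the members were selected on this comparison, nothing is read from these counts. The median log2 change of the members was -0.05 and their median absolute change was 0.33, against 0.00089 and 0.156 over all genes tested.

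**Figure D1:**
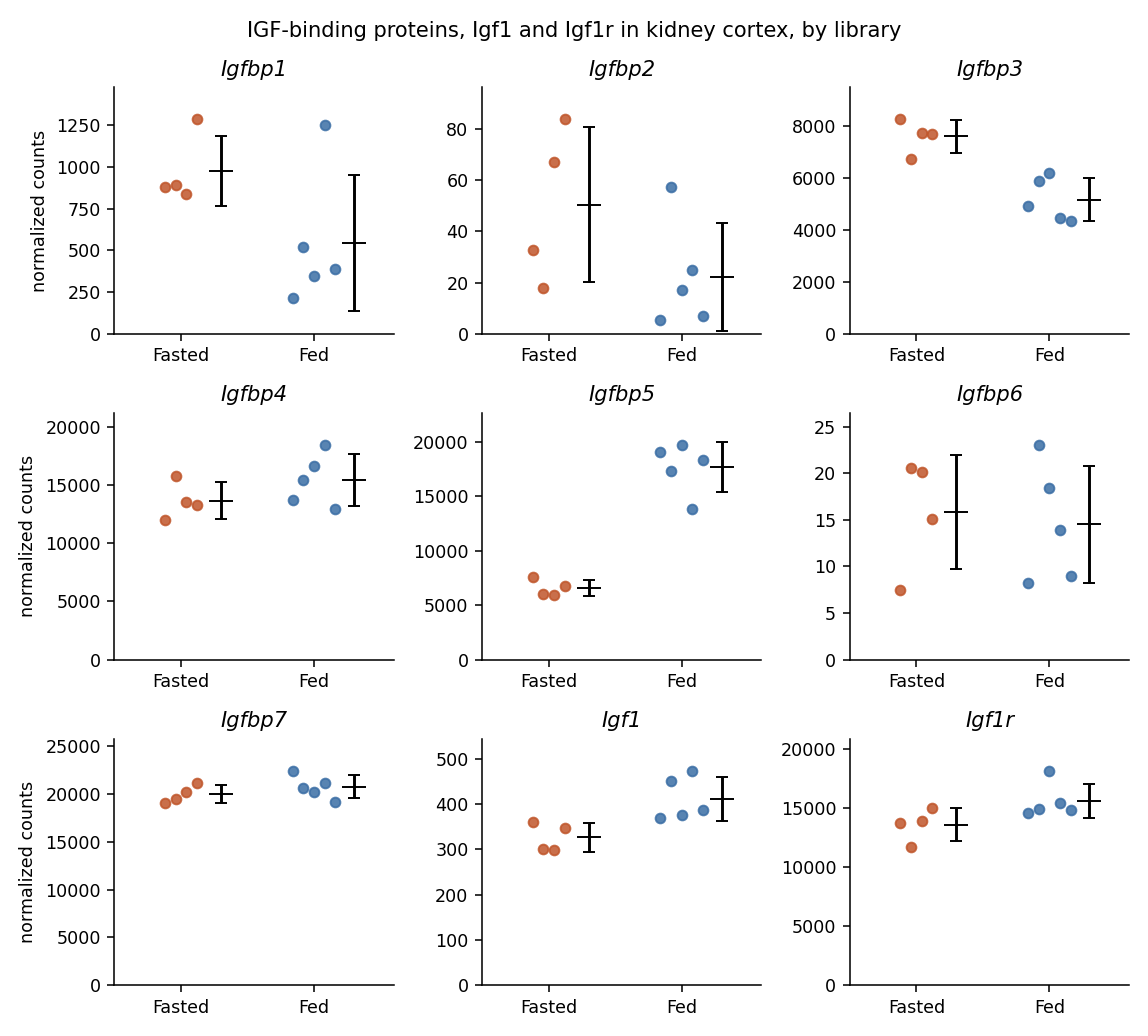
Normalized counts of each gene in the 4 fasted (left, orange) and 5 fed (right, blue) libraries, 1 point per mouse, on linear axes from 0, with the mean and SD as black bars. The Igfbp5 points of the fasted group lie between 5938 and 7594 and the fed points between 13882 and 19715, while a single fed library, at 1249, carries Igfbp1 into the fasted range.

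The stretch upstream of Igfbp1, Igfbp3 and Igfbp5 is shown because the letters of the insulin response element stand in only 1 of the 3. Each is printed from 250 to 21 bases before the gene's start in the RefSeq promoter table (GRCm38.p6), 230 bases from 5′ to 3′ on the gene's strand. Capitals mark the core letters of FoxO binding, TGTTT, searched on both strands. They also mark letters of the insulin response element, searched on both strands in the forms CAAAACA and, with another base in its sixth place, CAAAATA. A match on the opposite strand is seen here as its reverse complement, and the first form holds a FoxO core on that strand.
Igfbp1, chr11:7197537-7197766, plus strand: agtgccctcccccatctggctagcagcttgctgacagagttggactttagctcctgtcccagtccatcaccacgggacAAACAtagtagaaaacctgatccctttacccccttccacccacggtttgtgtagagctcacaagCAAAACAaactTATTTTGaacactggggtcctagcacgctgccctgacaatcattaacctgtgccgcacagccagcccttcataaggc
Igfbp3, chr11:7213944-7214173, minus strand: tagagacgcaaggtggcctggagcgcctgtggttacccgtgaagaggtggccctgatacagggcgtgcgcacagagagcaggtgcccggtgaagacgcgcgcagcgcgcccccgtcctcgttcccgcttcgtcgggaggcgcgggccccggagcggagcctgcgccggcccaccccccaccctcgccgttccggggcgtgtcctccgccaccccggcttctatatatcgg
Igfbp5, chr1:72874886-72875115, minus strand: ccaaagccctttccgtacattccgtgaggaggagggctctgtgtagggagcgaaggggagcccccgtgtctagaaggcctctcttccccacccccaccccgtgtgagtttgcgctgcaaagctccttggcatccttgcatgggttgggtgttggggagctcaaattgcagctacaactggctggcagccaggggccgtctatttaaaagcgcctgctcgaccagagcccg
Igfbp1 holds CAAAACA at -108 to -102 and TATTTTG at -97 to -91 from the start, the inverted pair known as its insulin response element. The same letters, at least 2 matches of CAAAACA or CAAAATA, occur in 1.10% of 32851 RefSeq promoters of the same 300 bases, and 10.2% hold at least 1; these letters were chosen with the Igfbp1 sequence in view. Among the 10 promoters of the 9 members (Igfbp2 has 2), only that of Igfbp1 held either form. TGTTT occurred in 5 of the 10 and in 50.5% of all promoters. The longer FoxO letters TGTTTAC and TGTTTNC occurred in none of the 10, and in 3.65% and 20.5% of all promoters. Igfbp5 had its single TGTTT from 28 to 32 bases after the start, outside the stretch shown, and the Igfbp3 promoter had none. These matches are letters in a window and not measured binding.

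Igf1 encodes the ligand. It had 361, 301, 298 and 347 normalized counts in Fasted 1 to 4, against 368, 451, 376, 474 and 388 in Fed 1 to 5. Every fasted library lay below every fed one and Fasted 1 and Fed 1 lay close together. The means were 327 ± 31.9 in fasted kidneys and 411 ± 47.6 in fed kidneys (SD, n = 4 and 5), a log2 change of -0.33 (SE 0.10). Igf1 was not called by limma or by edgeR's quasi-likelihood test and was called by DESeq2.

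Igf1r encodes the receptor tyrosine kinase that IGF-1 activates. Its values were 13746, 11727, 13909 and 15000 in Fasted 1 to 4, against 14603, 14877, 18137, 15417 and 14843 in Fed 1 to 5. The groups overlapped, with Fasted 4 inside the fed range and Fed 3 well above the other fed libraries. The log2 change was -0.20 (SE 0.09) and was not called.

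Igfbp5 encodes a binding protein that is retained in extracellular matrix and can also act without IGF. It had 7594, 6067, 5938 and 6730 normalized counts in Fasted 1 to 4, against 19120, 17343, 19715, 13882 and 18318 in Fed 1 to 5. The highest fasted library was well below the lowest fed one, Fed 4, which stood apart from the other fed libraries. The means were 6582 ± 759 in fasted kidneys and 17676 ± 2300 in fed kidneys (SD, n = 4 and 5), a log2 change of -1.42 (SE 0.11). Igfbp5 ranked 217 by mean level among the listed genes, and 30 genes that passed the test, Igfbp5 itself among them, had a decrease at least as large. Its log2 change lay between -1.51 and -1.37 under the 19 alternatives tried.

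Igfbp3 encodes the main carrier of IGF-1 in blood, where it forms a ternary complex with IGF-1 and the acid-labile subunit. Its values were 8254, 6738, 7729 and 7694 in Fasted 1 to 4, against 4907, 5899, 6196, 4475 and 4355 in Fed 1 to 5. The fasted libraries were all higher, Fasted 2 and Fed 3 being closest. The means were 7604 ± 631 in fasted kidneys and 5166 ± 837 in fed kidneys (SD, n = 4 and 5), a log2 change of 0.57 (SE 0.11). It lay between 0.47 and 0.64 under the 19 alternatives tried, lowest with log2 Alb as a covariate. After subtracting group means, the log2 values of Igfbp3 and Alb had Pearson's r = 0.67 and Spearman's rho = 0.72 over the 9 libraries, and r = 0.64 without the 2 libraries farthest in Alb.

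Igfbp1 encodes the binding protein whose liver transcript is switched off by insulin. It had 883, 895, 839 and 1285 normalized counts in Fasted 1 to 4, against 217, 520, 345, 1249 and 389 in Fed 1 to 5. A single fed library, Fed 4, reached the fasted range, and without it the other 4 fed libraries lay below all fasted ones. The means were 975 ± 208 in fasted kidneys and 544 ± 409 in fed kidneys (SD, n = 4 and 5). The log2 change was 1.09 (SE 0.39) and was not called, and without Fed 4 it was 1.45 and was called. That was the only 1 of the 19 alternatives tried in which Igfbp1 was called. Neither edgeR nor DESeq2 called it. With log2 Alb as a covariate the change was 0.81.

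Igfbp2, which encodes a binding protein made by liver and other tissues, was scarce. It had 32.6, 18.0, 67.1 and 83.6 normalized counts in Fasted 1 to 4, against 5.21, 57.1, 17.1, 24.7 and 6.96 in Fed 1 to 5. The groups overlapped widely, and the highest and lowest fed libraries, Fed 2 and Fed 1, were also those with the most and the least Alb. After the group means were subtracted, the log2 values of Igfbp2 and Alb had Pearson's r = 0.93 and Spearman's rho = 0.88 over the 9 libraries, and r = 0.90 without the 2 libraries farthest in Alb. For Igfbp1 and Alb the same r was 0.49, and 0.09 without those 2 libraries, for Igfbp6 and Alb it was 0.69, and 0.45 without them, and for Igfbp5 and Alb it was -0.20. The log2 change of Igfbp2 was 1.38 (SE 0.64), not called, and 0.52 with log2 Alb as a covariate. Both genes of such a pair are read from the same tissue piece and library, and the part of hepatocyte transcripts in these levels was not tested beyond that covariate. Alb is 1 of 5 hepatocyte markers that did not all run alike, and the others were not set beside these genes.

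Igfbp4, whose product holds IGF away from the receptor until proteases cut it, had 11996, 15819, 13544 and 13324 normalized counts in Fasted 1 to 4, against 13726, 15425, 16663, 18443 and 12938 in Fed 1 to 5. The groups overlapped (log2 change -0.17, SE 0.11). Igfbp6, which encodes a binding protein that prefers IGF-2, was scarce at 15.8 ± 6.11 in fasted kidneys and 14.5 ± 6.30 in fed kidneys (SD, n = 4 and 5). Its log2 change of 0.12 (SE 0.38) had no stable direction: it was below 0 in 5 of 18 alternatives. Igfbp7, a relative that binds IGF weakly and is abundant in endothelium, was the most even member, with 19042 to 21176 normalized counts in fasted libraries and 19189 to 22418 in fed libraries (log2 change -0.05, SE 0.07). In GENCODE M21, 85 of its exon bases, 7.03%, overlap Polr2b on the opposite strand, and it is not given whether the counting used strand.

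**Figure D2:**
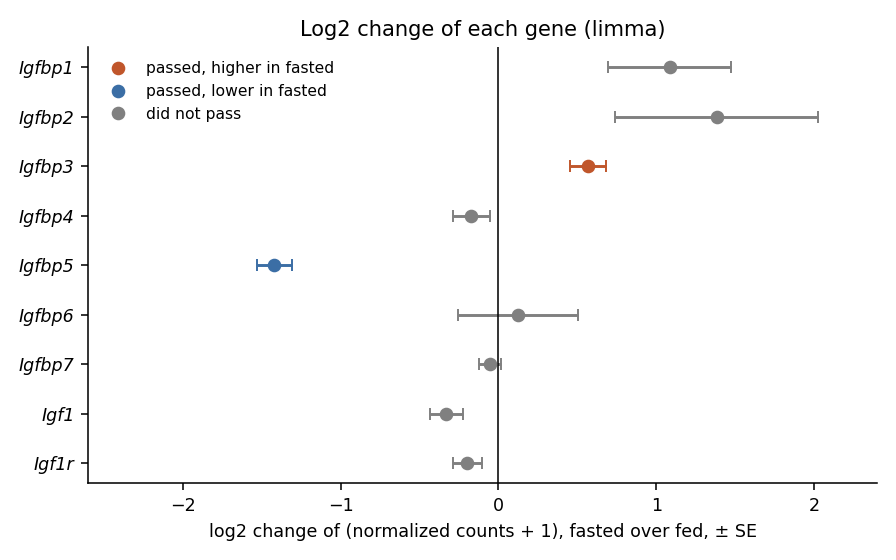
Log2 change of each gene, fasted over fed, with its SE from limma; orange marks a gene called higher in fasted, blue one called lower and grey one not called across all genes tested. Igfbp5 lies at -1.42 with an SE of 0.11, while Igfbp1 at 1.09 and Igfbp2 at 1.38 have wider errors, with an SE of 0.39 and 0.64.

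Marker levels gave the setting of these differences. The summed 9 endothelial markers lay between 18850 and 19679 normalized counts in fasted libraries and between 17243 and 19727 in fed libraries, with 1 marker called higher and 1 lower. The 7 fibroblast markers summed to between 8310 and 10970 in fasted libraries and between 7318 and 10132 in fed libraries, with 2 called higher and 1 lower. The summed markers of thick ascending limb lay between 137294 and 169659 in fasted and between 109007 and 146471 in fed libraries, and those of collecting duct between 6140 and 6635 in fasted and between 6559 and 9346 in fed libraries. In the collecting duct sums Fed 4 was the only fed library inside the fasted range. The summed 4 adipocyte markers lay between 777 and 1110 in fasted libraries and between 516 and 772 in fed libraries, but nearly all of this was Fabp4, at 766 to 1106 in fasted and 509 to 768 in fed libraries. Both markers that could be tested, Fabp4 and Plin1, were called higher, Plin1 reached 70.7 in Fasted 2 and at most 10.7 in any other library, and the defining marker Adipoq was at most 2.79 in any library. The part of cell make-up in the member differences was not tested.

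Levels can be compared between members only per length. Per kilobase of exons (the union of annotated exons in GENCODE M21), Igfbp7 led with 16527 normalized counts per kb in fasted kidneys and 17159 in fed kidneys, followed by Igfbp4 with 3096 and 3496. The next places changed hands: Igfbp3 was above Igfbp5 in all 4 fasted libraries, at 2429 against 1096 on average, and below it in all 5 fed libraries, at 1651 against 2943. Igf1r followed with 810 in fasted and 928 in fed kidneys, and Igfbp1 with 640 and 357. Igf1 (33.0 and 41.5), Igfbp2 (27.2 and 12.0) and Igfbp6 (14.2 and 13.04) were lowest. Neighbours whose libraries overlapped were Igfbp4 and Igfbp5 in fed kidneys, Igf1r and Igfbp1 in fasted kidneys, Igf1 and Igfbp2 in fasted kidneys, and Igfbp2 and Igfbp6 in both groups.

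The ratio of Igfbp3 to Igfbp5 per kb condenses this exchange. It was 2.09, 2.13, 2.50 and 2.19 in Fasted 1 to 4, against 0.492, 0.653, 0.603, 0.619 and 0.456 in Fed 1 to 5. The fasted libraries were all above 2 and the fed libraries all below 1. This separation follows from the values of the 2 genes given above and is not a further result. As a share of the 7 binding protein transcripts per kb, Igfbp5 made up 4.61% ± 0.613 in fasted kidneys and 11.5% ± 1.66 in fed kidneys, and Igfbp3 10.2% ± 0.974 and 6.44% ± 0.961 (SD, n = 4 and 5). Igfbp7 held 69.3% ± 0.856 in fasted and 66.9% ± 1.996 in fed kidneys. The summed level of the 7 genes was 23829 ± 870 per kb in fasted and 25630 ± 1222 in fed kidneys and the libraries overlapped. That overlap depends on the length correction: without it the sum was lower in every fasted library than in every fed one. This too follows from the values of the genes given above. Without the length correction the share of Igfbp5 was 13.5% in fasted and 29.7% in fed kidneys.

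**Figure D3:**
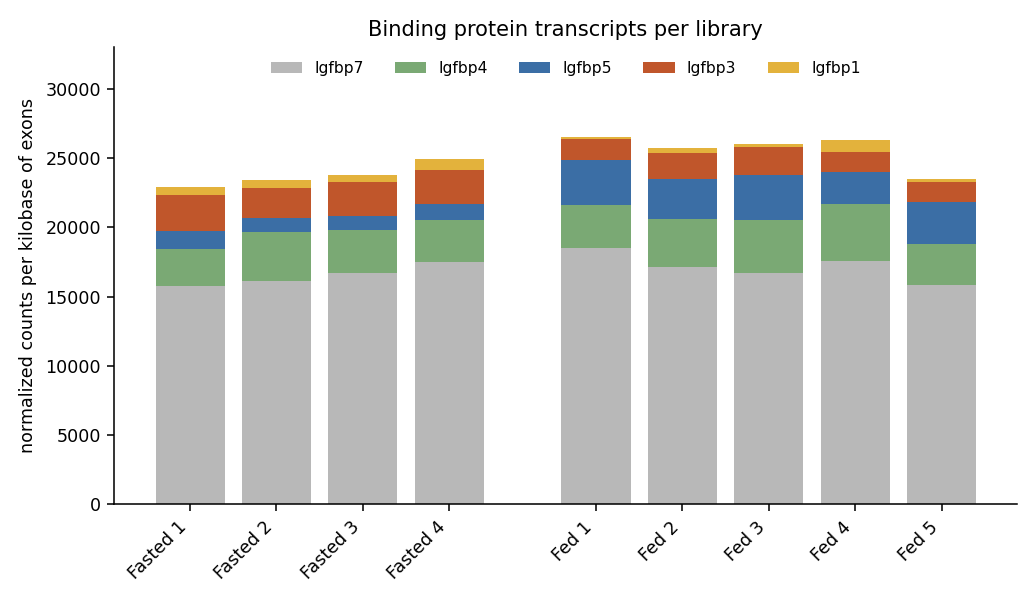
Stacked bars of the binding protein transcripts in normalized counts per kilobase of exons, 1 bar per library with fasted libraries on the left; Igfbp2 and Igfbp6, each under 0.2% of the sum, are left out. The blue Igfbp5 segment is thin in every fasted bar, 4.61% on average, and thicker in every fed bar, 11.5% on average, while the total heights overlap.

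Of the binding protein genes 4 lie in close pairs. In GRCm38, Igfbp5 (chromosome 1, 72857932 to 72874884, minus strand) lies 5457 bases from Igfbp2 (chromosome 1, 72824503 to 72852474, plus strand), tail to tail. Igfbp3 (chromosome 11, 7206086 to 7213923, minus strand) lies 3539 bases from Igfbp1 (chromosome 11, 7197782 to 7202546, plus strand) in the same arrangement. Within the Igfbp1 and Igfbp3 pair both means were higher in fasted kidneys, and within the Igfbp2 and Igfbp5 pair the means went opposite ways. Igfbp4 (chromosome 11, 99041244 to 99054392), Igfbp6 (chromosome 15, 102144362 to 102149511), Igfbp7 (chromosome 5, 77349240 to 77408041), Igf1 (chromosome 10, 87858265 to 87937042) and Igf1r (chromosome 7, 67952827 to 68233668) lie away from these pairs. All 9 are protein-coding.

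Within groups, some members varied together from mouse to mouse. After subtracting group means from log2 values, 36 pairs were compared over the 9 libraries; both genes of a pair are read from the same tissue piece and library. The highest was Igfbp1 with Igf1 (Pearson's r = 0.78, Spearman's rho = 0.78, and r = 0.68 without the 2 libraries farthest in Igfbp1). Igfbp4 and the scarce Igfbp6 ran together (r = 0.69, rho = 0.73, and r = 0.80 without the 2 libraries farthest in Igfbp4). Igfbp4 and Igfbp5 ran opposite ways (r = -0.68, rho = -0.62, and -0.53 without 2 libraries). The pairs named here are the strongest of the 36, picked after all were seen, and no p-value was computed. Igfbp1 and Igfbp5 had r = -0.71 and rho = -0.60, but r = -0.19 without the 2 libraries farthest in Igfbp1, so that relation rests on them. Within the fed group Fed 4 had the highest Igfbp1, Igf1 and Igfbp4 and the lowest Igfbp5. It was neither highest nor lowest of the fed group for the other members.

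**Figure D4:**
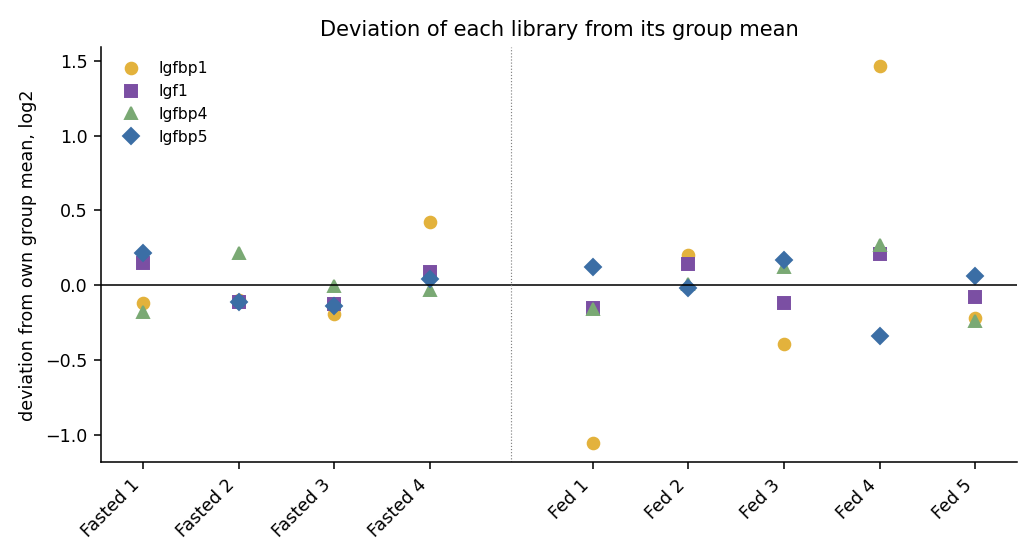
Deviation of log2(value + 1) from the group mean for 4 genes in each library, fasted libraries left of the dotted line. For these 4 genes Fed 4 is the fed library farthest from the group mean, with a deviation of 1.46 for Igfbp1 and of -0.34 for Igfbp5. For each of the members not drawn another fed library was farther, as Fed 2 was for Igfbp2, at 1.79.

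Of 11096 genes that averaged 100 normalized counts or more, those whose level ran most like Igfbp5 over the 9 libraries were Ptpn13, a tyrosine phosphatase (r = 0.98), Il5ra, a cytokine receptor chain (0.98), Dpy19l3, a mannosyltransferase (0.98), Bsnd, the barttin subunit of kidney chloride channels (0.98), and Slc35f1, a solute carrier family member (0.97). Members and genes with predicted, unnamed or pseudogene names were left out of the 11096. These values include the difference between groups, which all 5 share. Bsnd had 1074 ± 47.5 normalized counts in fasted kidneys and 1577 ± 77.7 in fed kidneys (SD, n = 4 and 5). Slc35f1 had 85.9 ± 8.50 in fasted and 212 ± 36.6 in fed kidneys (log2 change -1.28, SE 0.14). After subtracting group means, the most alike were Enah, an actin regulator (r = 0.97), Map1b, a microtubule-associated protein (0.96), Syt11, a synaptotagmin (0.96), Slc6a17, an amino acid transporter (0.95), and Sytl2, a vesicle-docking protein (0.95). None of the 10 appears in both sets. Each set holds the highest of 11096 values over only 9 libraries, picked after all were seen. Among so many genes some high values of r can be met by chance, and no p-value was computed. Enah, the closest within groups, averaged 1093 ± 77.2 in fasted and 1126 ± 87.4 in fed kidneys, a log2 change of -0.04 (SE 0.08).

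The other genes of the axis were followed in 8 lists, 68 genes counted once, of which 63 were tested. By limma 6 were higher and 4 lower, 15.9% of those tested, against 11% of all genes tested (5.72% higher and 5.25% lower), with a median log2 change of 0.04. edgeR's quasi-likelihood test called 10 of the 63 (15.9%) and DESeq2 16 (25.4%), against 1655 (11%) and 2349 (15.6%) over all genes. Every adjusted p-value below is from limma with Benjamini-Hochberg adjustment over all genes tested.

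Among other ligands and receptors, 1 of 4 tested genes rose. Insr, the insulin receptor, had 9617 ± 529 normalized counts in fasted kidneys and 7748 ± 534 in fed kidneys (SD, n = 4 and 5), a log2 change of 0.31 (SE 0.07, adjusted p = 0.0174). This call was lost without Fasted 1, Fasted 3 or Fasted 4 (adjusted p between 0.055 and 0.056), without Fed 3 and Fasted 1 together (0.076) and with the Alb covariate (0.054). Igf2r, the receptor that clears IGF-2, was even at 13187 ± 629 in fasted and 12970 ± 1239 in fed kidneys. Ins2, an insulin gene, was listed at 0 in every library.

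In the receptor signalling list 1 of 18 genes rose and 2 fell. Pik3cb, a catalytic subunit of PI3-kinase, had 849 ± 66.3 in fasted and 1211 ± 192 in fed kidneys (log2 change -0.50, SE 0.11, adjusted p = 0.0132). Akt2, a kinase that acts downstream of PI3-kinase, had 810 ± 23.5 in fasted and 960 ± 52.1 in fed kidneys (-0.24, SE 0.06, adjusted p = 0.0306). Akt2 lost its call in 8 of 19 alternatives, among them without Fasted 1 (adjusted p = 0.083), Fasted 2 (0.062), Fasted 3 (0.079), Fasted 4 (0.060), Fed 1 (0.060) or Fed 4 (0.054).

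Of 10 tested genes whose products carry an IGFBP-type domain without being classical binding proteins, 1 rose and 1 fell. Ctgf, a matrix-associated growth factor of the CCN family, had 2957 ± 300 in fasted and 1678 ± 411 in fed kidneys (log2 change 0.85, SE 0.16, adjusted p = 0.00865). Wisp1, another CCN gene, had 106 ± 11.9 in fasted and 183 ± 41.5 in fed kidneys (-0.76, SE 0.16, adjusted p = 0.0144). It missed the threshold without Fasted 4 (adjusted p = 0.052). Crim1, a membrane protein with this domain, averaged 4632 ± 396 in fasted and 4482 ± 110 in fed kidneys.

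The IGF2 mRNA-binding proteins, which bind transcripts and not IGF itself, split: of 3 genes 1 rose and 1 fell. Igf2bp2 had 324 ± 31.2 in fasted and 202 ± 39.5 in fed kidneys (log2 change 0.70, SE 0.14, adjusted p = 0.00894). Igf2bp1 had 72.6 ± 18.7 in fasted and 198 ± 45.4 in fed kidneys (-1.44, SE 0.23, adjusted p = 0.00311). Igf2bp3 had 154 ± 17.3 in fasted and 139 ± 14.95 in fed kidneys and did not pass.

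Among integrins and other partners that binding proteins dock on, 2 of 10 rose. Ptprb, a phosphatase of endothelium, had 6496 ± 231 in fasted and 5125 ± 412 in fed kidneys (log2 change 0.34, SE 0.07, adjusted p = 0.0104), a call lost without Fed 3 and Fasted 1 together (0.051). Cd93, an endothelial surface protein reported as a partner of IGFBP-7, had 1989 ± 103 in fasted and 1471 ± 229 in fed kidneys (0.45, SE 0.10, adjusted p = 0.0178), and missed the threshold without Fasted 4 (0.061) and without Fed 3 and Fasted 1 (0.063). Both genes are endothelial. Of the 9 endothelial markers Pecam1 was higher by 0.35 (SE 0.07, adjusted p = 0.0107) and Kdr lower, with a log2 change of -0.26 (SE 0.06, adjusted p = 0.0269), and the other 7 did not pass. The part of endothelial content in the Ptprb and Cd93 values was not tested. Itgav, the integrin alpha V chain, had 12481 ± 472 in fasted and 10935 ± 794 in fed kidneys and did not pass (adjusted p = 0.103), though it passed without Fed 5 (0.048).

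No gene passed in 3 lists by limma or by edgeR. An unadjusted limma p under 0.05 was found for 4052 of the 15098 genes tested, 26.8%, and the counts of such genes in these lists are to be read beside that share. In the list of the ternary complex and of proteases that cut binding proteins, 2 of 8 genes had an unadjusted p under 0.05 and DESeq2 called 1. Pappa2, a protease that cleaves IGFBP-3 and IGFBP-5 and was named after its values were seen, had 24.1 ± 11.4 in fasted and 47.2 ± 12.2 in fed kidneys (SD, n = 4 and 5; limma adjusted p = 0.0753). Adam9, the most abundant of the list, averaged 4079 ± 126 in fasted and 4373 ± 219 in fed kidneys. In the growth hormone list 2 of 8 had an unadjusted p under 0.05 and DESeq2 called 0; Ghr, the growth hormone receptor, had 21503 ± 2418 in fasted and 24587 ± 1692 in fed kidneys (limma adjusted p = 0.192). Of 3 tested FoxO factors, which insulin keeps out of the nucleus, 1 had an unadjusted p under 0.05 and DESeq2 called 0; Foxo3 had 2586 ± 276 in fasted and 2037 ± 335 in fed kidneys (limma adjusted p = 0.0886), and passed without Fed 3 (adjusted p = 0.042).

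**Figure D5:**
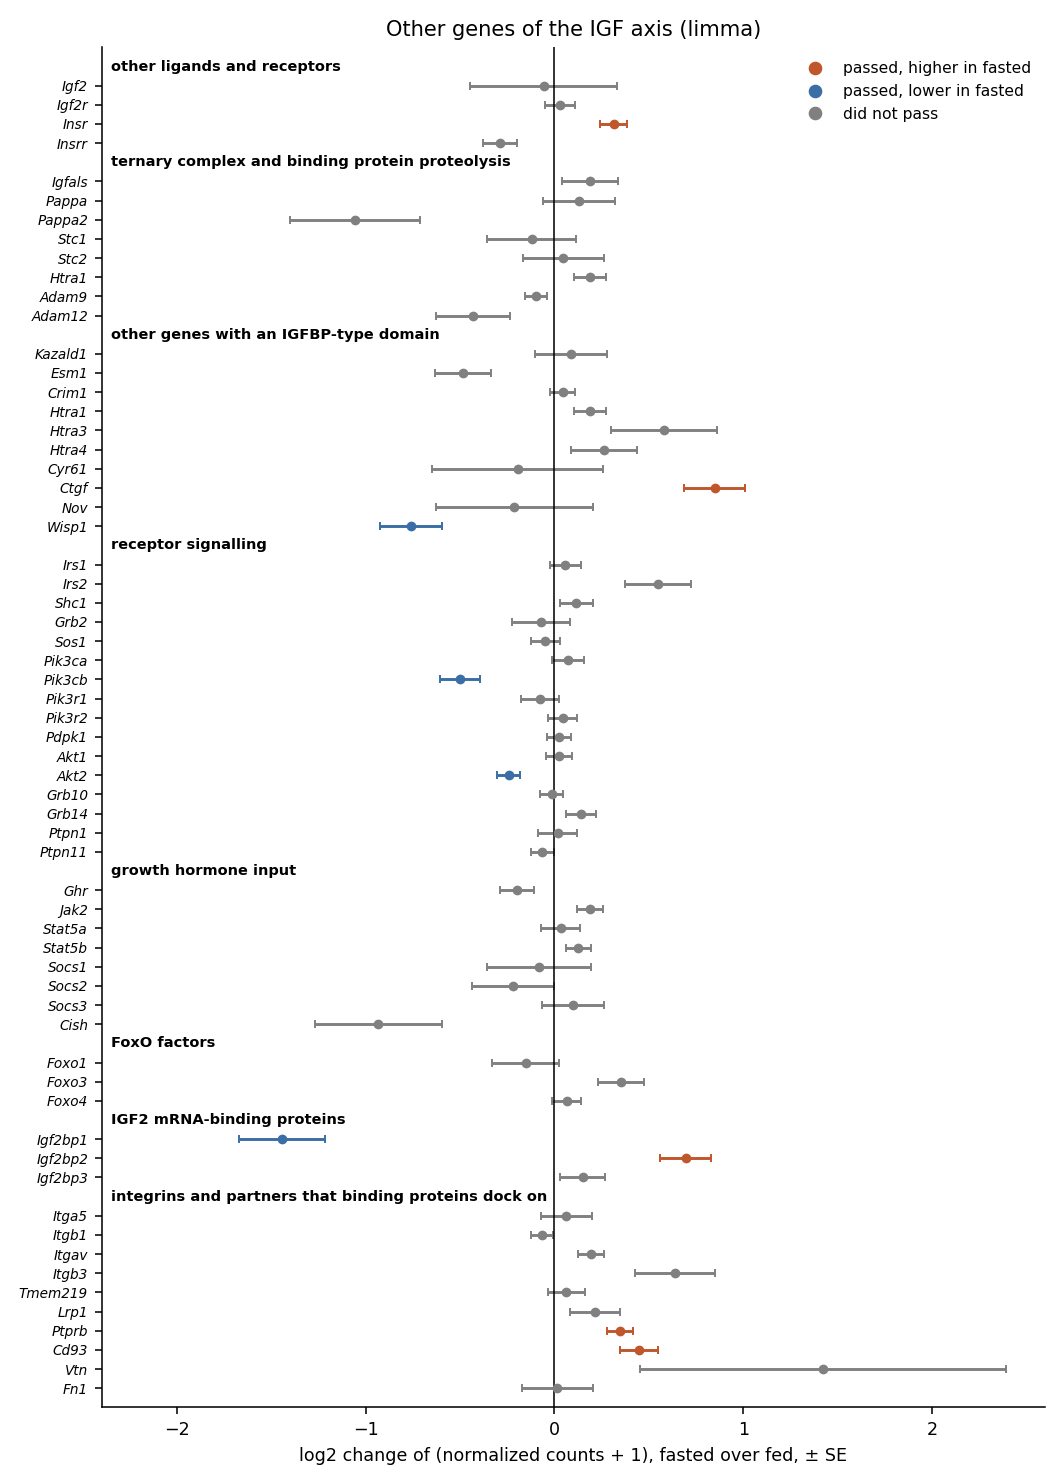
Log2 change, fasted over fed, with its SE for 61 tested genes of the 8 lists, with Htra1 drawn in both of its lists; orange marks genes called higher in fasted, blue those called lower and grey those that did not pass. Most points lie near 0, and Igf2bp1 at -1.44 is the only called gene beyond 1 in either direction.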

How the data were processed

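Kidney cortex RNA from 9 mice was sequenced as TruSeq libraries, per the labels' protocols. Per the submitters' processing notes, the tools were FastQC, TopHat2 2.0.9, HTSeq 0.9.1 and DESeq2 (version given as 3.5) and the builds mm10 and hg19; the annotation and strand setting used for counting are not given in the sources used here. The members and gene lists were chosen with earlier results of these data known.

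The deposited signal is a normalized count: the authors scaled each library's read counts by a single size factor. Every one of the 161194 non-zero values equals a whole number of steps of its column within 0.01 reads, so reads were recovered. One read was worth 0.744 to 1.32 normalized counts, which limits Igfbp2 and Igfbp6. The deposited log2 fold changes, their score (the change over its standard error) and p-value columns are the authors'. The deposited annotation chart gives the count of genes, percent, p-value and fold enrichment of each term.

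Genes averaging 10 normalized counts or more were tested on log2(value + 1) with limma-trend (limma 3.58.1, R 4.3.3), two-sided, with Benjamini-Hochberg adjustment and calls under 0.05. edgeR 4.0.16 (quasi-likelihood) and DESeq2 1.42.0 on recovered reads, other filters (a mean of at least 50, none), pseudocounts (0.5 and 5), TMM and upper quartile scaling, an adjusted p under 0.01, an Alb covariate and libraries left out were alternatives. The named genes are all members, every called gene and the most abundant uncalled gene of each list, the 5 most like Igfbp5 by each measure, and Alb. The steps were checked on simulated data. These were independent counts with the same spread set for every gene and no shift of whole libraries. The check therefore does not show how the test behaves on these libraries. The libraries within a group differed by more than counting error in all 16 pairs, measured as chi-square per degree of freedom on recovered reads. This was highest in the pairs that hold Fed 3, from 74.5 with Fed 5 to 111 with Fed 1. All other pairs lay between 15.8 (Fed 2 and Fed 4) and 43.1 (Fed 4 and Fed 5). Ribosomal RNA entry Rn45s held 5.53% of Fed 3, the highest share of the fed group, and 2.36% of Fasted 1, the highest of the fasted group. A few genes covered by it are counted but not reported here. Protein sequences were not used here.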

Additional observations from a re-analysis of the deposited data

Results flagged for a closer look

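In 76 groups of libraries searched (each named gene in fasted and in fed kidneys), 7 had a single library far from the rest of its group, judged by the gap to the nearest library over the group's range. Chance flags about 1 in 20 such groups. Fasted 4 had 1285 normalized counts of Igfbp1, against at most 895 in the other fasted libraries. Fed 4, at 1249, was similarly apart for Igfbp1 but just short of the limit. Fed 3 was high for 3 genes: 18137 for Igf1r (the next fed library had 15417), 1550 for Pik3cb (1172) and 269.7 for Igf2bp2 (197). Fed 3 also had the highest Rn45s share of all libraries, 5.53%; whether this bears on these values was not tested. Fed 4 was low for 3 of the genes most like Igfbp5 within groups: 975 for Enah (the next had 1125), 276 for Map1b (386) and 703 for Sytl2 (956). Those genes were picked for following Igfbp5, which was itself lowest of the fed group in Fed 4. Map1b passed narrowly (limma adjusted p = 0.0490) and lost its call in 12 of 19 alternatives.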

How the results depend on the processing

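The replicate numbers used here follow the order of the samples in the series. Each library's title in the labels is itself a number, and what that number stands for is not given. In order of title the fasted libraries form a block between earlier and later fed ones. No paired analysis was possible because the labels pair no fasted mouse with a fed one. The 1656 genes changed became 861 to 1959 when 1 library was left out (leaving out Fasted 4 gave 861, Fed 1 gave 1004, Fasted 3 gave 1062 and Fasted 1 gave 1084), 1068 without Fed 3 and Fasted 1, and 538 at an adjusted p under 0.01. DESeq2 called 2349 and edgeR 1655, of which limma also called 1624. The members called were 2 to 3 with 1 library left out and 1 at an adjusted p under 0.01. Of the other IGF axis genes 7 to 12 were called with 1 library left out, 16 by DESeq2 and 3 at an adjusted p under 0.01. Apart from the fewer libraries or the stricter limit, the cause was not tested. The log2 change turned sign for Igfbp6, from -0.041 (without Fed 1) to 0.42 with 1 library left out, 0.53 without Fed 3 and Fasted 1, and -0.21 with the Alb covariate. It did so for Igf2r, from -0.016 (without Fed 3) to 0.077 with 1 library left out and -0.0063 without Fed 3 and Fasted 1. For Crim1 it lay between -0.0053 (without Fasted 4) and 0.094 with 1 library left out. None of these 3 genes was called. Rescaling by TMM or upper quartile left the median change of all genes under 0.001. With the longest annotated transcript as the length, Igfbp3 stood above Igfbp5 in the order over all libraries. Igfbp2 has no value under the filter on a mean of at least 50, and neither has Igfbp6. Levels of a few reads, as for Igfbp2 and Igfbp6, limit what depth can show.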

Other observations

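The authors' deposited table gives log2 fold changes of its own, starved over fed. The authors' deposited table lists -1.33 (SE 0.110) for Igfbp5, 0.52 (SE 0.113) for Igfbp3 and -0.31 (SE 0.109) for Igf1. For Igfbp1 the authors' deposited table lists 0.37 (SE 0.222), and for Igfbp2 0.30 (SE 0.196). The limma values above are 1.09 (SE 0.39) for Igfbp1 and 1.38 (SE 0.64) for Igfbp2, those from edgeR 0.85 and 1.20, and those from DESeq2 run here 0.84 and 1.19. The authors used another version of DESeq2 with settings not given here, so their fold changes may not be the same measure. The reason for their smaller values was not tested. In the authors' deposited table Igfbp3 and Igfbp5 were the members with an adjusted p under 0.01. In the authors' deposited annotation chart 11 of 705 terms hold a member. The chart's term for the N-terminal domain of IGF-binding proteins, taken from the authors' deposited table, holds 4 genes of their list, Wisp1, Ctgf, Igfbp3 and Igfbp5, out of 11 in its background. The authors' deposited table gives that term a fold enrichment of 5.41, a p-value of 0.0333 and a Benjamini-adjusted value of 0.722, so it does not pass adjustment. Of the 4, Ctgf and Igfbp3 were higher and Wisp1 and Igfbp5 lower in fasted kidneys by limma.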
